A study of Mus musculus with 9 samples.

Results

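The genes described here encode the contractile actin and myosin machinery of the cell and its best known transcriptional regulator, serum response factor (Srf), with the genes commonly listed as Srf targets. They were chosen by name, 44 in all of the 47643 genes in the deposited count files, and each was found by its Ensembl identifier. Of the 44, 42 had at least 100 counts summed over the 9 libraries and were tested among 14105 genes. Cnn1, with 86 counts, and Lmod1, with 62 counts, were below that limit.

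Actin monomers assemble into filaments, and bundles of filaments slide past each other when nonmuscle myosin II pulls on them, which gives the cell tension. Myosin II is switched on when its regulatory light chain is phosphorylated, for example by myosin light chain kinase. Srf binds a short DNA element called the CArG box, and its coactivators of the MRTF family are held in the cytoplasm by free actin monomers and move to the nucleus when filaments form. Yap, a transcriptional coactivator that works through TEAD proteins, also responds to cytoskeletal tension, and many genes are listed as targets of both systems.

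Libraries were made from FACS-sorted tumor cells of mice with pancreatic ductal adenocarcinoma (PDAC). Mice of both groups carried, among other alleles, Pdx-Flp, a recombinase driven by a promoter active in the pancreatic lineage, Trp53 frt/+ and the R26 FSF-CreER/Dual allele, and KPYYF mice also carried Yap flox/flox. Tamoxifen diet, begun once tumors could be felt, activates CreER, which turns off the green reporter (GFP), turns on the red one (Tm) and, in KPYYF mice, deletes Yap. The comparison asks how GFP+Yap+ cells of KPF mice (6 libraries) differ from Tm+Yap− cells of KPYYF mice (3 libraries). By the paper, the sequenced cells were taken from relapsed nodules in tumors of tamoxifen-treated mice. Genotype, Yap status, reporter and relapse after Yap loss changed together and cannot be told apart. Mice of both groups had received tamoxifen. The age of each mouse and its days on tamoxifen are not given in the sources used here. Libraries are named by their mouse numbers, and KPF 4504h and 4504s share one number, so they may come from a single mouse.

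Reads on genes ran from 8116539 to 9635514 per library. Reads of the X-linked gene Xist were 79, 71 and 159 in KPF 4269, 4515 and 4601. They were 5878 to 10933 in the other KPF libraries and 3452 to 16108 in KPYYF libraries. No KPYYF library had so few Xist reads, so the groups are unbalanced in this respect. A fit within the libraries with over 1000 Xist reads is among the alternatives. Yap1 was measured at 41.7 to 150 CPM (counts scaled to library size) in KPF and at 0.711, 2.84 and 7.10 CPM in KPYYF libraries, lower in every library labelled as deleted. Markers of the sorted tumor cells differed too: all 8 ductal epithelial markers had lower values in KPYYF libraries, 3 of them (Krt18, Cdh1 and Muc1) with an adjusted p under 0.05 by edgeR's quasi-likelihood test, and their summed level was 3218 to 10700 CPM in KPF against 622 to 1895 CPM in KPYYF libraries. Libraries KPF 4504s and KPYYF 4449 had the most summed acinar markers (19867 and 5891 CPM) and KPF 4601 the most immune markers (10455 CPM). In bulk RNA of this kind, fewer cells of a type and less RNA per cell cannot be told apart.

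Most of the actomyosin genes had lower values in the KPYYF cells, but none passed the adjusted test. Of the 42 tested, 33 had a lower fitted level (78.6%, beside 53.3% of all genes tested) and 9 a higher one. The median log2 fold change (KPYYF against KPF) was -0.61, also with Actg2 at its lower bound, beside -0.07 over all genes tested. By the edgeR test, 0 of the 42 had an adjusted p under 0.05 in either direction (adjusted over all genes tested), where 0.794% of all genes were lower and 0.305% higher. At an unadjusted p under 0.05 the count was 15 lower and 0 higher (background 10% lower and 6.1% higher). DESeq2's Wald test called 7 members lower and 0 higher at an adjusted p under 0.05, where it called 6.58% of all genes lower and 1.91% higher, and limma-voom called 0.

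The study's methods use another rule, an unadjusted p under 0.05 with a more than 2-fold change. By it 8 members were lower in KPYYF cells and 0 higher, against 9.2% of all genes lower and 4.2% higher. The 8 were Acta2, Actg2, Tagln, Mylk, Csrp1, Myh14, Pdlim5 and Vil1, and DESeq2 gave the same 8 genes by this rule. Acta2, Actg2, Mylk, Myh14, Pdlim5 and Vil1 stayed past it when any single library was left out. Tagln did not without KPF 4435, 4504h, 4504s or 4515 or without KPYYF 4449 or 4938 (unadjusted edgeR p of 0.0608 to 0.112), and Csrp1 did not without KPF 4504s or 4601 or KPYYF 4449 or 4938 (log2 fold changes of -0.94 to -0.84). With 4504h and 4504s summed as one mouse, Tagln (unadjusted edgeR p of 0.0765) and Csrp1 (log2 fold change -0.96) did not pass either. In 6 members (Mylk, Myl12b, Tpm3, Actn1, Pdlim5 and Vil1) the highest KPYYF library lay below the lowest KPF library, and in none did the KPYYF libraries all lie above. Among all genes tested, these shares were 5.18% and 3.92%. The gap was narrow in Myl12b (highest KPYYF library 54.9 CPM, lowest KPF library 56.0 CPM) and in Tpm3 (740 and 749 CPM).

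**Figure D1:**
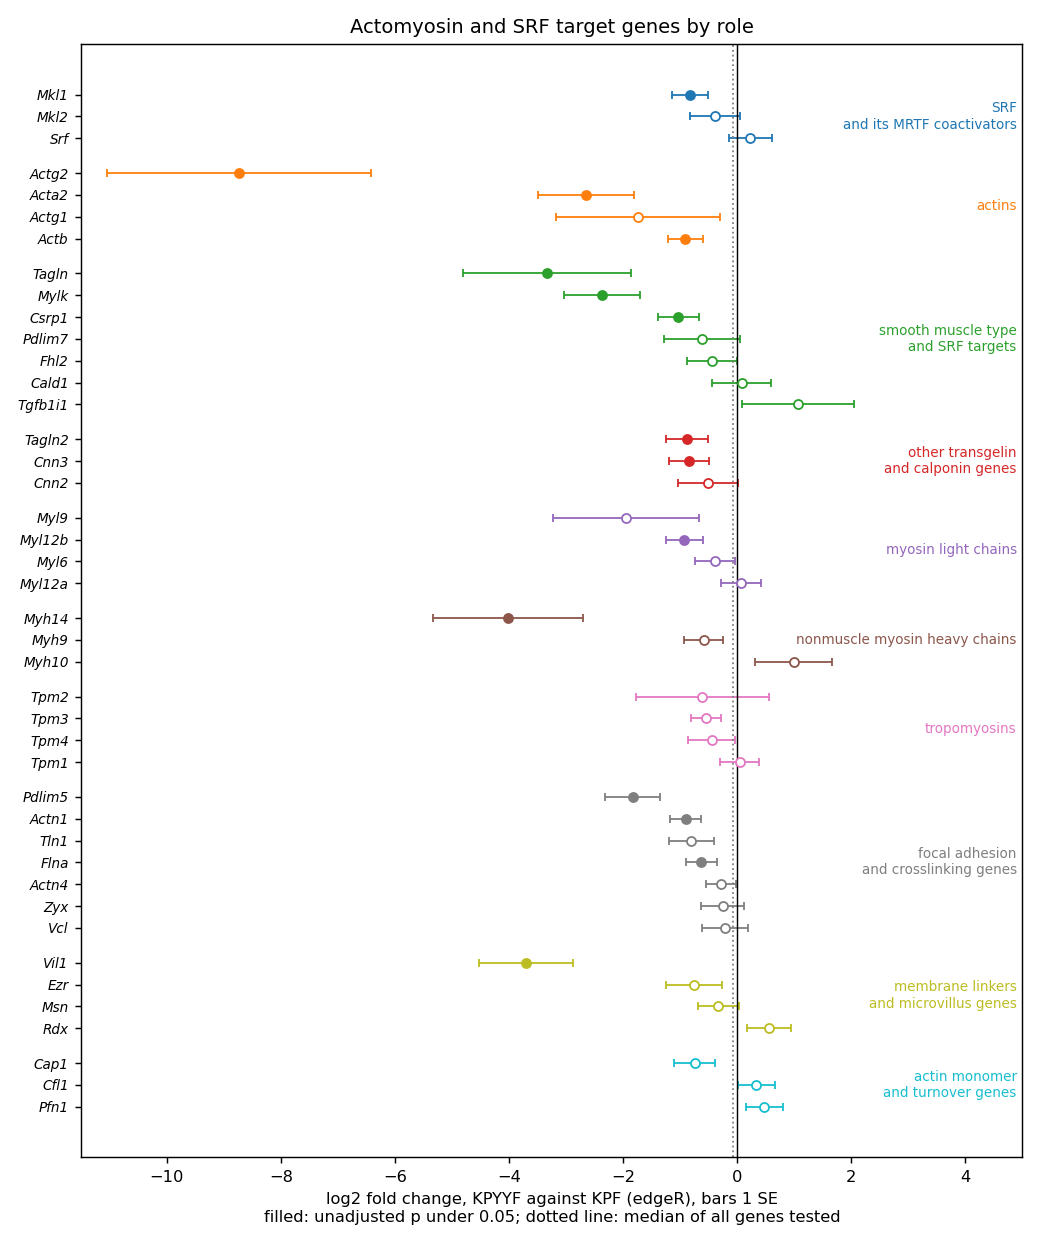
Log2 fold change of the 42 tested members in KPYYF against KPF libraries (x axis, points with 1 standard error), grouped by role, with filled points for an unadjusted p under 0.05 and a dotted line at the median of all genes tested. Points to the left of 0 number 33, and the 15 filled points all lie there. The fitted value of Actg2, at 0 in all KPYYF libraries, depends on the prior count and is no bound.

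The transcription factor itself had no lower fitted level in the cells without Yap. Srf was measured at 102 (lowest), 198 (median) and 300 (highest) CPM in KPF libraries and at 136, 317 and 209 CPM in KPYYF 4449, 4891 and 4938. The groups overlapped throughout, with a log2 fold change of 0.23 ± 0.38 (SE, edgeR adjusted p = 0.831), and without KPYYF 4891 the fitted value was -0.12. Mkl1, which encodes the coactivator MRTF-A, was measured at 40.1, 59.7 and 66.6 CPM (lowest, median and highest) in KPF and at 25.9, 40.6 and 30.7 CPM in KPYYF libraries. Of the KPYYF libraries only 4891 exceeded the lowest KPF library, 4269, and by a narrow margin. Its log2 fold change was -0.83 ± 0.32 (SE), with an edgeR adjusted p of 0.218 and an exact permutation p of 0.0238. The last exon of Mkl1 overlaps an exon of Sgsm3 on the opposite strand. Mkl2, encoding MRTF-B, was measured at 23.6, 33.6 and 59.8 CPM in KPF and at 48.4, 17.6 and 23.1 CPM in KPYYF libraries. Here 4449 lay within the KPF range and the other two KPYYF libraries below it, and the log2 fold change was -0.39 ± 0.44 (SE, edgeR adjusted p = 0.730).

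Promoter sequences from RefSeq (GRCm38.p6, the assembly the submitters' processing notes call mm10), each from 250 bases before to 50 after a transcript start, were found for 40 of the 44 members, and not for Actb, Actg2, Tagln and Tgfb1i1. A CArG box, 6 A or T bases between a CC and a GG, stood in a window of 8 of the 40 members (20%), against 1.81% of the 27025 genes with a window. A gene with several transcript starts has several windows, 32851 over all genes, and counted if any of them held the motif. The members with a match were Srf, Fhl2, Vil1, Cnn2, Myl9, Myl6, Vcl and Actg1, and the box is the same read on either strand. Since the list was drawn up from known Srf targets, this describes the list and is no test. A box with 1 C or G in its core stood in 6 of the 40 (15%: Acta2, Mkl1, Myl12a, Myl9, Rdx and Tpm3), against 9.70% of all genes. One box of each of the 8 members with a CArG box, and a box with 1 C or G in its core in Acta2, are printed so that the elements can be set beside the values of their genes. Capitals mark the box, each line reads 5′ to 3′ on the strand of the gene, and positions give its first base counted from the transcript start.
Srf, chr17:46556210-46556269, minus strand, position -82: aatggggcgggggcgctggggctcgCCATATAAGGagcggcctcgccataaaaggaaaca
Fhl2, chr1:43163958-43164017, minus strand, position -31: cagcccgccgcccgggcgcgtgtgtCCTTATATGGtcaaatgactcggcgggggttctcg
Vil1, chr1:74409286-74409345, plus strand, position -73: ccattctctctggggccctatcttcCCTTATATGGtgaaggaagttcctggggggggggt
Cnn2, chr10:79988519-79988578, plus strand, position -56: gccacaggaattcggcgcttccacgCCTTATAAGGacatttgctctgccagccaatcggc
Myl9, chr2:156775278-156775337, plus strand, position -161: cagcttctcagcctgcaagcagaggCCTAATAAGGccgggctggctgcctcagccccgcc
Myl6, chr10:128493025-128493084, minus strand, position -50: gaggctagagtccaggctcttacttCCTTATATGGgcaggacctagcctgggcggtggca
Vcl, chr14:20929148-20929205, plus strand, position -227: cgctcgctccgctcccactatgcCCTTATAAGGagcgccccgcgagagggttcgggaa
Actg1, chr11:120348551-120348610, minus strand, position -90: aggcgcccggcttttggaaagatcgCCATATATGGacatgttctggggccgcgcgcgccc
Acta2, chr19:34255423-34255482, minus strand, position -84: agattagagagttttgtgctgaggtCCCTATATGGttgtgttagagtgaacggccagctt

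Srf carries a second box at position -62, seen in lower case in its line, and Fhl2 a second one at the start of another transcript. Acta2 carries another box with 1 C or G in its core at position -34. The 8 members with a CArG box, all of them tested, had a median log2 fold change of -0.48 and 7 of them were lower. The other 30 tested members with a window had a median of -0.61, with 23 lower. Vil1 and Srf, with boxes at positions -73 and -82, had log2 fold changes of -3.70 and 0.23.

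The core of the TEAD element, CATTCC or GGAATG on the other strand, was found in a window of 13 of the 40 members (32.5%). It was found in 16.6% of all genes with a window and in 14.7% of all single windows. The members with a match were Acta2, Actn4, Cald1, Flna, Lmod1, Mkl2, Myh10, Myl12a, Mylk, Pfn1, Tagln2, Tpm1 and Vcl. Of these, Cald1, Myh10, Myl12a, Pfn1 and Tpm1 had higher fitted levels (log2 fold changes of 0.08, 0.99, 0.07, 0.48 and 0.04). Acta2, Actn4, Flna, Mkl2, Mylk, Tagln2 and Vcl had lower ones (-2.65, -0.29, -0.63, -0.39, -2.38, -0.88 and -0.21), and Lmod1 was not tested. As with the CArG box, this describes the list and is no test. The 2 lines that follow show the TEAD core in Acta2 and Mylk, the members with a match that were lower by the rule of the methods.
Acta2, chr19:34255489-34255544, minus strand, position -146: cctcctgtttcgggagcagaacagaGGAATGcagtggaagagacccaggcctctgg
Mylk, chr16:34784767-34784822, plus strand, position -158: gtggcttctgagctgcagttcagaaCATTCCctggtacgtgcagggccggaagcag

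**Figure D2:**
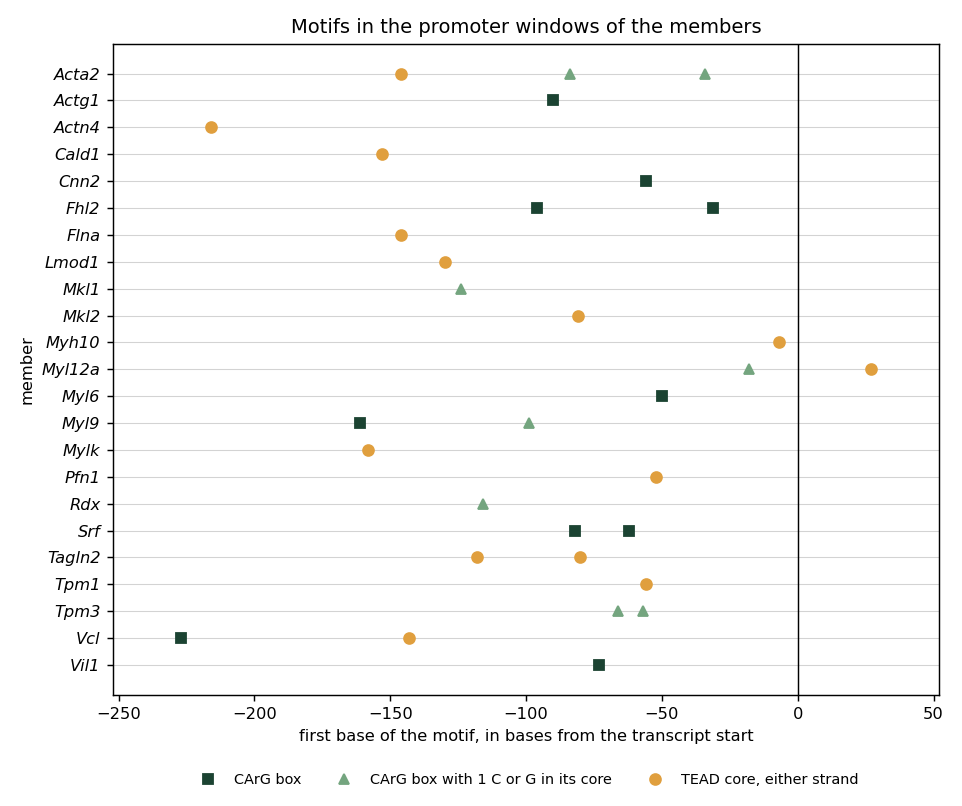
Position of the first base of each motif (x axis, bases from the transcript start) in the promoter windows of the members with a match (y axis); squares mark CArG boxes, triangles boxes with 1 C or G in the core and circles the TEAD core on either strand. Of the 10 CArG boxes in 8 members, the one farthest from a start is that of Vcl at position -227.

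Among the actins, both smooth muscle isoforms had far lower values. Acta2, smooth muscle alpha actin and the usual marker of contractile fibroblasts and vascular smooth muscle, was measured at 3.10, 56.4 and 96.8 CPM (lowest, median and highest) in KPF and at 8.05, 5.78 and 9.51 CPM in KPYYF libraries. The KPYYF libraries were tightly grouped, and KPF 4269 lay below all of them while the other 5 KPF libraries lay above. The log2 fold change was -2.65 ± 0.85 (SE), with an edgeR adjusted p of 0.150 (0.00768 to 0.410 over the alternatives) and an exact permutation p of 0.119. Without KPF 4269 the log2 fold change was -2.90 and the edgeR adjusted p 0.0420.

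Actg2, the enteric smooth muscle gamma actin, had no read in any KPYYF library, and its KPF levels were 0, 7.27 and 8.46 CPM (lowest, median and highest). Again KPF 4269 was the exception, with 0 reads. Set against 3 counts per KPYYF library, the KPF mean of 5.87 ± 3.24 CPM (SD, n = 6) was at least 17.4-fold higher. The edgeR adjusted p was 0.102 (0.000371 to 0.267 over the alternatives, and 0.0436 without KPF 4269), and the exact permutation p 0.0476.

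Actb, cytoplasmic beta actin, was the most abundant actin, with 8204 ± 2493 CPM (SD, n = 6) in KPF and 4367 ± 926 CPM (SD, n = 3) in KPYYF libraries. Its log2 fold change was -0.91 ± 0.31 (SE, edgeR adjusted p = 0.166), and KPF 4269, at 4167 CPM, lay within the KPYYF range. Actg1, cytoplasmic gamma actin, had only 140 reads over all 9 libraries. Of the 50-base stretches in the last 300 bases of its transcripts, 44.5% also occur in transcripts of 19 other genes, and reads that align to several places are not in the counts, so its level is uncertain. The share of reads without a unique alignment also separated the groups, with 43.8 to 48.5% in KPF and 49.2 to 53.4% in KPYYF libraries. Its part in the values of members with much shared 3′ sequence (among them Actg1, Myl12a, Myl12b and Tpm3) was not tested. In Tagln the largest match is an antisense transcript, and in Vcl and Cfl1 a gene on the opposite strand. Their shared sequence therefore need not lie in a second place. Within each library Actb held 98.9 to 99.9% of the reads of the 4 actins in KPF and 99.8% in every KPYYF library.

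Acta2, Actg2 and Tagln together came to 3.49 to 115 CPM in KPF and 8.05 to 9.84 CPM in KPYYF libraries. The 2 lowest KPF libraries, 4269 and 4601, also had the lowest sums of the 10 fibroblast markers (428 and 594 CPM, where the other 4 KPF libraries had 2072 to 5598 CPM). In KPYYF libraries the fibroblast markers came to 1073 to 3162 CPM, within the KPF range. Of these 10 markers 5 were lower and 5 higher, 1 of them lower and 2 higher at an unadjusted p under 0.05, and none was at 0 in all libraries. The 10 pericyte and smooth muscle markers came to 40.7 to 308 CPM in KPF and 87.4 to 290 CPM in KPYYF libraries. Among them 5 were lower and 4 higher of 9 tested. Cspg4 was higher with an edgeR adjusted p of 0.0351, and Rgs5, a pericyte marker, was lower in every KPYYF library (3.08 to 11.4 CPM against 19.9 to 119 CPM in KPF, log2 fold change -2.52 ± 0.71 SE, edgeR adjusted p = 0.113). Their part in the lower Acta2, Actg2 and Tagln was not tested.

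**Figure D3:**
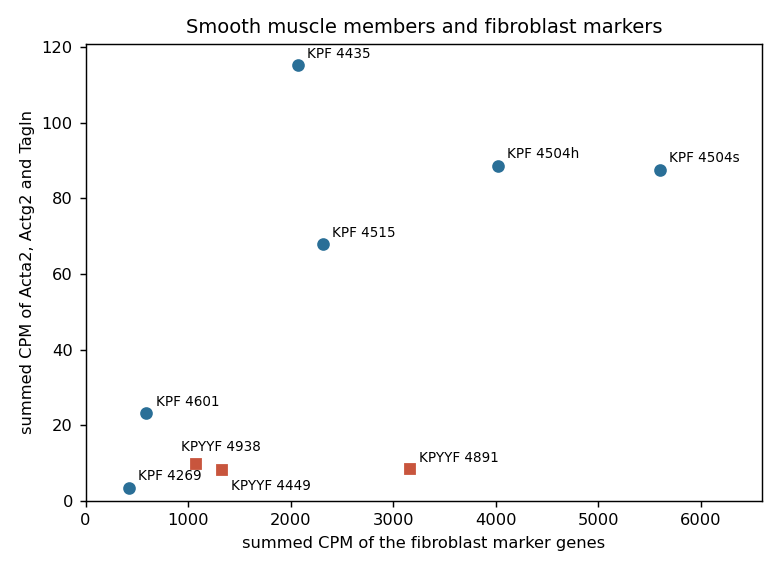
Summed CPM of Acta2, Actg2 and Tagln (y axis) against the summed CPM of the 10 fibroblast markers (x axis) in each of the 6 KPF (circles) and 3 KPYYF (squares) libraries. The KPYYF libraries lie between 8.05 and 9.84 CPM on the y axis, near KPF 4269, while their fibroblast marker sums span 1073 to 3162 CPM.

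Of the 9 smooth muscle type contractile and Srf target genes, 7 were tested, 5 lower and 2 higher, with a median of -0.62. Mylk, the kinase that phosphorylates the myosin regulatory light chain, was measured at 59.95, 124 and 235 CPM (lowest, median and highest) in KPF and at 25.8, 44.7 and 4.15 CPM in KPYYF libraries. No KPYYF library reached the lowest KPF library. Its log2 fold change was -2.38 ± 0.67 (SE), with an edgeR adjusted p of 0.116 (0.00241 to 0.236 over the alternatives) and an exact permutation p of 0.0119, the smallest that 9 libraries allow.

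Tagln, transgelin or SM22 alpha, an actin-binding protein of smooth muscle, was measured at 0.388, 10.4 and 18.1 CPM in KPF and at 0, 2.51 and 0.328 CPM in KPYYF libraries. KPF 4269 and 4601 overlapped the KPYYF libraries. The log2 fold change was -3.34 ± 1.47 (SE, edgeR adjusted p = 0.279, exact permutation p = 0.0952), and the unadjusted p was under 0.05 in 9 of 18 alternatives. Without KPYYF 4891, the only KPYYF library above 0.328 CPM, the log2 fold change was -5.75. Of the 50-base stretches of its 3′ end, 52.2% are shared with transcripts annotated in other genes, among them an antisense transcript, and how strand entered the counting is not given in the sources used here.

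Csrp1, a LIM domain protein that binds alpha-actinin, was measured at 82.9, 138 and 227 CPM in KPF and at 60.4, 98.8 and 56.1 CPM in KPYYF libraries. Only KPYYF 4891 reached into the KPF range. The log2 fold change was -1.03 ± 0.36 (SE, edgeR adjusted p = 0.171, exact permutation p = 0.0357). The highest fold change of the whole list belonged to Tgfb1i1, the focal adhesion adaptor Hic-5, at 1.06 ± 0.98 (SE, edgeR adjusted p = 0.661). That value rested on KPYYF 4449, at 30.3 CPM where the other two had 4.69 and 6.01 CPM, and was -0.29 without it. Cald1 (caldesmon, which restrains myosin on actin filaments), Fhl2 and Pdlim7 (LIM domain adaptors) had log2 fold changes of 0.08, -0.44 and -0.62, and their groups overlapped.

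Cnn1, smooth muscle calponin, was at 0 to 2.04 CPM in KPF libraries and at 4.97, 0 and 0 CPM in KPYYF libraries. Lmod1, leiomodin, which nucleates filaments in smooth muscle, had 5.50 CPM in KPF 4504h, at most 0.727 CPM in the other KPF libraries and no read in KPYYF cells. The related genes that most cells express were higher in level and smaller in difference. Tagln2 was measured at 1490 ± 366 CPM (SD, n = 6) in KPF and 810 ± 461 CPM (SD, n = 3) in KPYYF libraries. Its log2 fold change was -0.88 ± 0.37 (SE, edgeR adjusted p = 0.251). Cnn3, acidic calponin, had -0.84 ± 0.35 (SE, edgeR adjusted p = 0.254) and Cnn2 -0.51 ± 0.52 (SE, edgeR adjusted p = 0.694).

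**Figure D4:**
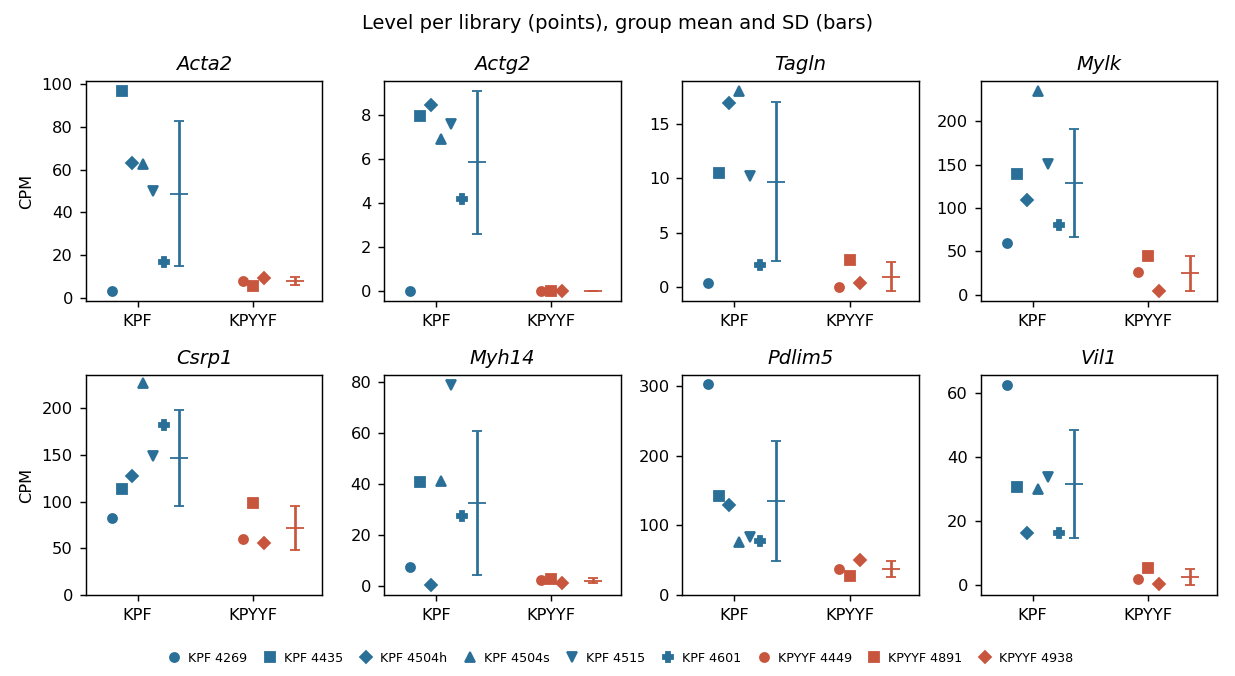
Level in CPM (y axes) of the 8 members that were lower by the rule of the methods, in each KPF and KPYYF library (points, one marker per library), with group means and SD as bars. In Mylk, Pdlim5 and Vil1 no KPYYF library reaches the lowest KPF library, while in Acta2, Actg2 and Tagln KPF 4269 lies among the KPYYF libraries or below them.

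Of the 3 motor heavy chains, 1 was lower by the rule of the methods. Myh14, the heavy chain of nonmuscle myosin IIC, which is found mainly in epithelia, was measured at 0.204, 34.0 and 78.8 CPM (lowest, median and highest) in KPF and at 2.25, 2.73 and 0.984 CPM in KPYYF libraries. All KPYYF libraries were below 5 of the 6 KPF libraries, and KPF 4504h was below all of them. The log2 fold change was -4.02 ± 1.32 (SE, edgeR adjusted p = 0.164, 0.00165 to 0.715 over the alternatives, exact permutation p = 0.119). The edgeR adjusted p was 0.0311 without KPF 4504h and 0.0439 with 4504h and 4504s summed as one mouse.

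Myh9, the heavy chain of myosin IIA, was by far the most read of the 3 heavy chains, with 681 ± 291 CPM (SD, n = 6) in KPF and 453 ± 81.3 CPM (SD, n = 3) in KPYYF libraries (log2 fold change -0.59 ± 0.34 SE, edgeR adjusted p = 0.434). Myh10, that of myosin IIB, went the other way, with 30.2 CPM in the median KPF library and 77.2, 64.1 and 15.96 CPM in KPYYF libraries (log2 fold change 0.99 ± 0.68 SE, edgeR adjusted p = 0.525). Its share of the heavy chain reads was 0.374 to 5.62% in KPF libraries and 14.2 to 14.8% in KPYYF 4449 and 4891, but 2.93% in KPYYF 4938. Myh14 held 0.0167 to 14.8% in KPF and 0.181 to 0.629% in KPYYF libraries. Shares within a library do not depend on the scaling between libraries, but counts at the 3′ end of genes with several ends compare levels only roughly.

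Of the 4 light chains, 3 had lower fitted levels, 1 of them at an unadjusted p under 0.05. Myl12b, a regulatory light chain, was measured at 98.5 ± 30.04 CPM (SD, n = 6) in KPF and 51.7 ± 2.71 CPM (SD, n = 3) in KPYYF libraries, with no overlap but a narrow gap, and a log2 fold change of -0.93 ± 0.33 (SE, edgeR adjusted p = 0.178). Its near-identical neighbor Myl12a had 0.07 ± 0.36 (SE, edgeR adjusted p = 0.956). Of the 50-base 3′ stretches of Myl12b, 31.5% are shared with 1 other gene entry, which carries the same name. Of those of Myl12a, 38.8% are shared with 4 other genes, the largest match also being named Myl12b. The levels of both are therefore uncertain. Myl9, the regulatory light chain of smooth muscle type, was at 6.31 to 32.8 CPM in KPF and at 0, 11.0 and 0.219 CPM in KPYYF libraries. Its log2 fold change was -1.95 ± 1.28 (SE, edgeR adjusted p = 0.501, exact permutation p = 0.0476). Without KPYYF 4891, the only KPYYF library within the KPF range, it was -6.85 (edgeR adjusted p = 0.0553), and without KPYYF 4449 or 4938 it was -1.37 or -1.39. Myl6, the essential light chain, had -0.39 ± 0.35 (SE, edgeR adjusted p = 0.640). Over the 9 families of related members, none of the 26 shares of family reads separated the groups.

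None of the 4 tropomyosins, which coil along actin filaments and govern which myosins engage them, had an unadjusted p under 0.05. Tpm3 came closest, with 1034 ± 267 CPM (SD, n = 6) in KPF and 709 ± 28.7 CPM (SD, n = 3) in KPYYF libraries, no overlap but a narrow gap, and a log2 fold change of -0.54 ± 0.26 (SE, edgeR adjusted p = 0.333). Of its 3′ stretches 32.9% are shared with the gene Tpm3-rs7. Tpm1 had the highest fold change of the 4, at 0.04, and Tpm2, the muscle-type isoform, the lowest, at -0.61, with KPYYF levels from 0.711 to 156 CPM. Tpm4 had -0.44 and overlapped.

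All 7 focal adhesion and crosslinking genes had lower values in KPYYF cells, 3 of them (Actn1, Flna and Pdlim5) at an unadjusted p under 0.05, with a median of -0.63. Pdlim5, a PDZ and LIM domain protein that sits on alpha-actinin, was measured at 76.0, 106 and 302 CPM (lowest, median and highest) in KPF and at 37.1, 26.9 and 49.7 CPM in KPYYF libraries. The highest KPYYF library was below the lowest KPF library. The log2 fold change was -1.83 ± 0.48 (SE), with an edgeR adjusted p of 0.0932 (0.00444 to 0.241 over the alternatives) and an exact permutation p of 0.0238.

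Actn1, the filament crosslinker alpha-actinin 1, was measured at 868 ± 207 CPM (SD, n = 6) in KPF and 464 ± 38.4 CPM (SD, n = 3) in KPYYF libraries, again without overlap. Its log2 fold change was -0.90 ± 0.27 (SE, edgeR adjusted p = 0.122, and 0.0294 to 0.276 over the alternatives). Its paralog Actn4 had -0.29 ± 0.26 (SE, edgeR adjusted p = 0.658), and the Actn1 share of the reads of both was 69.0 to 79.7% in KPF and 64.8 to 72.1% in KPYYF libraries. Flna, filamin A, an X-linked gene, had -0.63 ± 0.27 (SE, edgeR adjusted p = 0.267). Tln1 (talin, the integrin-activating linker), Zyx (zyxin, which marks strained filaments) and Vcl (vinculin, which couples talin to actin) had log2 fold changes of -0.81, -0.26 and -0.21 with overlapping groups. Of the 3′ stretches of Vcl 50% are shared with Ap3m1, which lies on the opposite strand.

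Vil1 had the smallest p of all members. Villin, its product, bundles actin in the microvilli of gut and duct epithelia. It was measured at 16.2, 30.3 and 62.6 CPM (lowest, median and highest) in KPF and at 1.66, 5.23 and 0.328 CPM in KPYYF libraries. The groups were well apart, with means of 31.5 ± 17.0 CPM (SD, n = 6) and 2.41 ± 2.54 CPM (SD, n = 3), a 13.1-fold ratio. The log2 fold change was -3.70 ± 0.82 (SE), with an edgeR adjusted p of 0.0514 (3.40e-05 to 0.210 over the alternatives) and an exact permutation p of 0.0119, the smallest possible here. Without KPF 4601 the edgeR adjusted p was 0.0489. An exon of Usp37 on the opposite strand lies over the last 300 bases of Vil1.

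None of the other 3 membrane linker genes had an unadjusted p under 0.05. Ezr, ezrin, which ties filaments to the apical membrane, had a log2 fold change of -0.77 ± 0.49 (SE, edgeR adjusted p = 0.489), with KPYYF levels of 596, 159 and 369 CPM and a KPF median of 431 CPM. Its relatives Msn (moesin) and Rdx (radixin) had -0.34 and 0.55, and the shares of the 3 genes overlapped between groups. An exon of Sytl3 on the opposite strand lies over the 3′ end of Ezr. By group, Vil1 and Myh14 were lower in KPYYF cells, as were all 8 ductal epithelial markers, none at 0 in all libraries of a group. The marker sums did not overlap (3218 to 10700 against 622 to 1895 CPM). By library Myh14 did not follow them throughout, with its lowest level (0.204 CPM) in KPF 4504h, where the marker sum was 3218 CPM. The part of the marker shift in the lower Vil1 and Myh14 was not tested.

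Among the genes that handle actin monomers, Pfn1 (profilin, which feeds monomers to growing filaments) and Cfl1 (cofilin, which severs old ones) had higher values in KPYYF cells, with log2 fold changes of 0.48 ± 0.32 and 0.33 ± 0.32 (SE). Cap1, which recharges monomers, had -0.75 ± 0.36 (SE). Their edgeR adjusted p values were 0.514, 0.678 and 0.335, and the groups overlapped in all 3.

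**Figure D5:**
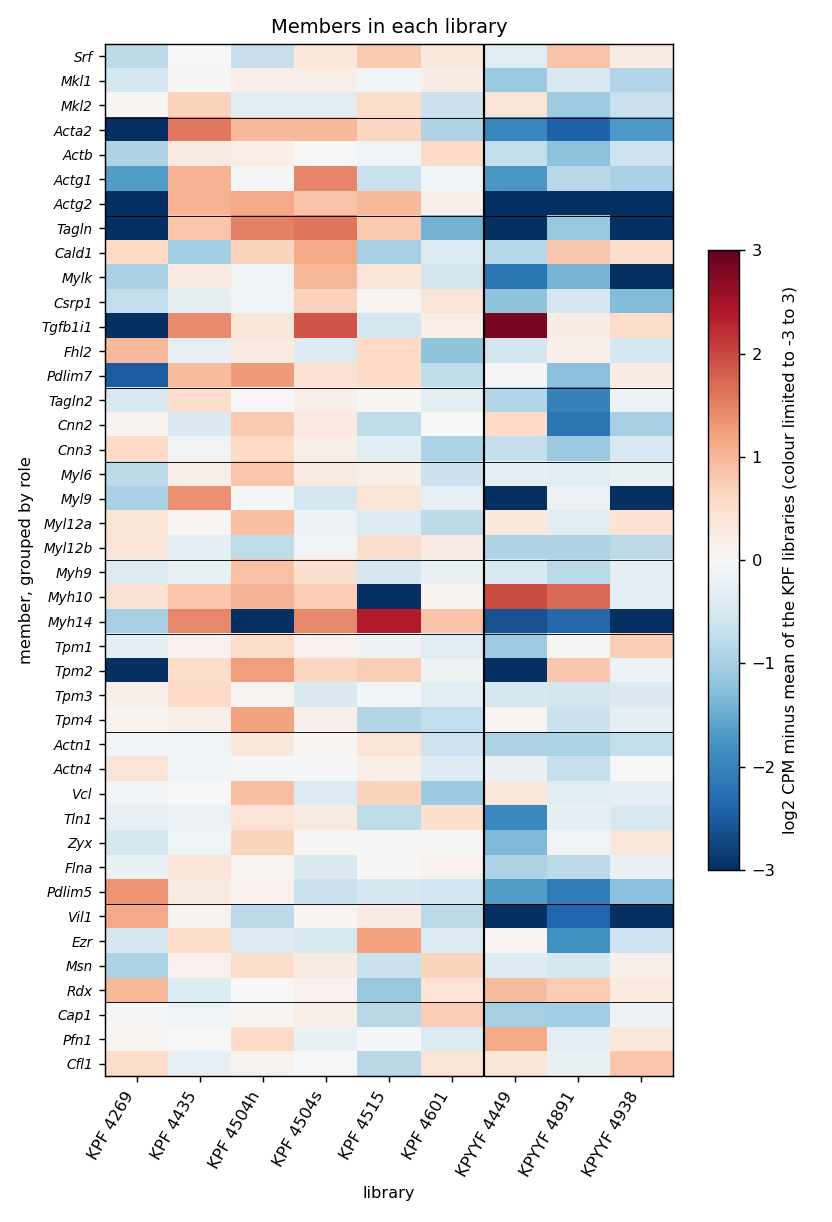
Log2 CPM of the 42 tested members in each library minus the mean of the 6 KPF libraries (color, limited to -3 to 3), with members in rows grouped by role and libraries in columns, KPF left and KPYYF right of the vertical line. KPF 4269 resembles the KPYYF libraries in Acta2, Actg2 and Tagln but not in Pdlim5 and Vil1, where it is the highest of all 9.

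The genes around the members were read from 3 further lists, in which edgeR and limma-voom called 0 genes at an adjusted p under 0.05. DESeq2 called 1 gene of the first list lower (Eps8l2), 2 of the second (Ankrd1 and Mcl1) and 0 of the third, and none higher. These 3 of 48 genes tested (6.25%) stand beside 6.58% of all genes. Of 28 genes for nucleation, capping and severing of filaments, 22 had lower values (median -0.42), or 78.6% beside 53.3% of all genes, and 5 an unadjusted p under 0.05, all lower (17.9% beside 10% of all genes). Fscn1 (fascin, which bundles filopodial actin) was highest at 1.03, and Lcp1, the plastin of blood cells, was lowest at -2.56, with 367 CPM in KPF 4601, the library richest in immune markers.

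The Srf partners and immediate early Srf targets were balanced, with 7 lower and 6 higher of the 13 tested and a median of -0.10. At an unadjusted p under 0.05, 2 of them were lower (15.4% beside 10% of all genes). Ankrd1, a cardiac ankyrin repeat gene also listed as a Yap target, was lowest at -2.04 ± 0.72 (SE, edgeR adjusted p = 0.193), and Elk1, an ETS partner of Srf, highest at 0.91 ± 0.49 (SE, edgeR adjusted p = 0.389). Mcl1 was the other gene of this list with an unadjusted p under 0.05, at -1.09 ± 0.31 (SE, edgeR adjusted p = 0.109). Of 12 other smooth muscle genes, 7 could be tested, 6 of them lower, and none reached an unadjusted p under 0.05. Myh11, the smooth muscle myosin heavy chain, was at 0 to 13.9 CPM in KPF and at 0.355, 0 and 2.19 CPM in KPYYF libraries. The lowest of these genes was Synm at -3.27.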

How the data were processed

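RNA from sorted PDAC cells was made into Lexogen QuantSeq 3' Fwd libraries. The authors deposited raw counts per Ensembl gene for each of 9 libraries, and the submitters' processing notes name STAR, HTSeq and mm10, without versions. The study's methods describe BeadChip hybridization, but the values are whole counts with unequal totals. Reads without a unique alignment made up 43.8 to 53.4% of each file and stay out of the counts, and 37.3 to 42.0% fell on genes (38.5 to 42.0% in KPF and 37.3 to 38.2% in KPYYF libraries).

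Symbols came from GENCODE M21 (GRCm38). Genes whose counts summed to 100 or more were tested, KPYYF against KPF, with edgeR 4.0.16 (quasi-likelihood, robust, TMM factors 0.832 to 1.08, R 4.3.3) without covariates, and p-values were adjusted by Benjamini-Hochberg over all genes tested. Fold changes are log2, CPM used TMM-scaled library sizes, and a group at 0 was set to 3 counts per library (0.291 to 0.436 CPM). The common biological coefficient of variation was 0.825. All tests were two-sided, and exact permutation tests of log2 CPM used all 84 ways to divide the libraries into 6 and 3. Libraries carry different mouse numbers except 4504h and 4504s, and the p-values measure the spread between libraries. Alternatives were RLE and upper quartile normalization, DESeq2 1.42.0, limma-voom (limma 3.58.1) with sample quality weights, no filter, filterByExpr, 4504h and 4504s summed, the libraries with over 1000 Xist reads alone, each library left out and, chosen after seeing the data, 4504s, 4601 and 4449 left out. The scripts were tested on simulated data.

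Members and lists were chosen with earlier results of these data known. Named with full values are members with an adjusted p under 0.05 or past the rule of the methods, and Srf, Mkl1 and Mkl2; the others are given by role, with the extremes of each role group. Members with an unadjusted p under 0.05 or separated groups were also given values, after these were seen. One gene of the Srf target list is not analysed here, and some items are not reported here. Promoters came from RefSeq tables. Shared 3′ sequence was counted as 50-base stretches in the last 300 bases of each transcript. Figures were drawn with matplotlib 3.10.9.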

Additional observations from a re-analysis of the deposited data

Results flagged for a closer look

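In 4 of 44 members a single KPF library stood far from the other 5, judged by its gap to the nearest one against the whole range (Dixon's test at the 95% level, which chance alone passes in about 1 of 20 groups). KPF 4504h was high for Lmod1 (5.50 CPM, next highest 0.727 CPM), Tpm4 (763 CPM, next highest 371 CPM) and Zyx (119 CPM, next highest 76.1 CPM). KPF 4269 was high for Pdlim5 (302 CPM, next highest 142 CPM), and without it the Pdlim5 difference kept its direction (edgeR adjusted p = 0.0916).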

How the results depend on the processing

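The median log2 fold change of the members stayed negative under all 18 alternatives and moved by less than the spread between KPF libraries. The count of members lower at an adjusted p under 0.05, 0 as reported, was 7 with DESeq2 (Acta2, Actg2, Mylk, Myh14, Actn1, Pdlim5 and Vil1), 3 without a filter (Actg2, Pdlim5 and Vil1), 1 with filterByExpr (Vil1), 1 with 4504h and 4504s summed (Myh14) and 1 in the libraries with over 1000 Xist reads (Acta2), where 6.58%, 0.955%, 0.811%, 0.610% and 0.237% of all genes were lower. It ran from 0 to 2 with a single library left out, being 2 without KPF 4269 (Acta2 and Actg2), 1 without KPF 4504h (Myh14) and 1 without KPF 4601 (Vil1), beside 0.622%, 0.767% and 0.841% of all genes. No alternative called a member higher. The count by the rule of the methods was 6 to 11 lower under all alternatives (6.78 to 12.04% of all genes) and 0 higher, but 4504h and 4504s summed lost Tagln and Csrp1, limma-voom lost Acta2, Tagln and Myh14, and leaving out 4504s, 4601 and 4449 together (8 lower, median -0.59) lost Tagln, Csrp1 and Myh14 while other members passed. Of the 754 refitted values of single members, 19 changed sign, and 17 more passed an adjusted p of 0.05. The first were Cald1 (-0.19), Myl12a (-0.15) and Tpm1 (-0.18) in the libraries with over 1000 Xist reads, and Myl12a (-0.18), Zyx (0.11) and Pfn1 (-0.084) without 4504s, 4601 and 4449. With a single library left out, Srf ran from -0.12 (without KPYYF 4891) to 0.48, Cald1 from -0.24 to 0.43, Tgfb1i1 from -0.29 (without KPYYF 4449) to 1.52, Myl12a from -0.079 to 0.30, Tpm1 from -0.45 to 0.39, Vcl from -0.46 to 0.0038 (without KPF 4504h) and Zyx from -0.65 to 0.091 (without KPYYF 4449). The cause was not tested. No paired analysis was possible because the libraries of the groups come from different mice and their replicate numbers only follow the order of the samples. Actg1, Cnn1 and Lmod1 rest on few reads, at most 140 in all.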
